A study of Mus musculus with 6 samples.

Results

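The CD3 subunit genes Cd3e, Cd3d, Cd3g and Cd247 were examined in the accessible regions that ATAC-Seq detected in the mouse pre-T-cell line Beko, a line with constitutively active Notch signalling. In ATAC-Seq, adapters are inserted by a transposase mainly where chromatin is open, and a peak marks a region depleted of packed nucleosomes. A peak was assigned to the CD3 genes when it overlapped the body of 1 of the 4 genes or the 50 kb to either side, with coordinates in mouse build mm9 and genes from GENCODE vM1. The windows of Cd3e, Cd3d and Cd3g overlap on chromosome 9 and were joined and counted once. Of 32527 peaks in all, 26 met this rule, 13 around the chromosome 9 cluster and 13 around Cd247 on chromosome 1.

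The study exposed Beko cells during 24 h to DAPT, a γ-secretase inhibitor (GSI) that prevents release of the intracellular domain of Notch, or to the solvent DMSO, with 3 libraries per treatment. The concentration of DAPT is given as 10 mg/ml in the sample labels and as 10 μg/ml in the study's methods. Both groups are the same cell line, in which Notch is active unless blocked by GSI, and nothing in the labels says whether the libraries came from separate cultures. The list used here merges all 6 libraries, keeps a peak found in 3 of them and gives a position and width without a value per library. GSI and DMSO were therefore not compared here, no replicate error can be given, and depth per library is unknown from the list. The values below describe which chromatin around the CD3 genes was called accessible, not how accessible it was.

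CD3ε (Cd3e), CD3δ (Cd3d) and CD3γ (Cd3g) are small membrane proteins with an immunoglobulin-like outer domain, and the ζ chain (Cd247) is a disulfide-linked dimer with a long cytoplasmic tail. Together they form the signalling module with which the T-cell receptor and the pre-T-cell receptor reach the cell surface. Their tails carry immunoreceptor tyrosine-based activation motifs (ITAMs), which are phosphorylated by the kinase Lck and then bind the kinase Zap70. Cd3e, Cd3d and Cd3g lie side by side as a compact gene cluster, whereas Cd247 is on another chromosome.

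The sequence around the starts of the genes is shown first, because the peaks there could be compared with each other, with neighbouring genes and with all other starts. Each line gives up to 300 bases of the accessible sequence upstream of the annotated transcription start site (TSS), 5′ to 3′ on the strand of the gene. Capitals mark every match, on either strand, to 1 of 10 short motif cores that were searched in all peaks. The core of RBPJ, the DNA-binding partner of Notch, was searched as TGGGAA and in its other form TGAGAA. The E-boxes bound by E proteins were searched as CAGCTG and separately as CAGGTG. The remaining cores were TGTGGT for RUNX factors, AGATAA for GATA factors, AGGAAG for ETS factors, CTTTGA for the TCF and LEF factors, GGGCGG for SP factors and AGGGGGC for part of the CTCF motif. No core contains another, and a match is a match of letters and not a binding site.
Cd3e upstream, chr9:44817674-44817973, minus strand: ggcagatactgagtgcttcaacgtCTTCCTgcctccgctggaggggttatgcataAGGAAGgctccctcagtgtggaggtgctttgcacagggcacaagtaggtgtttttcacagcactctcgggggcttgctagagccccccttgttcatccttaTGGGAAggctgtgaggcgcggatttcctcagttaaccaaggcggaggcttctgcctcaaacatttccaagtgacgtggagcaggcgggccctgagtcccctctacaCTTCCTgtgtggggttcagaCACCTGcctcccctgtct
Cd3g upstream, chr9:44788515-44788757, minus strand: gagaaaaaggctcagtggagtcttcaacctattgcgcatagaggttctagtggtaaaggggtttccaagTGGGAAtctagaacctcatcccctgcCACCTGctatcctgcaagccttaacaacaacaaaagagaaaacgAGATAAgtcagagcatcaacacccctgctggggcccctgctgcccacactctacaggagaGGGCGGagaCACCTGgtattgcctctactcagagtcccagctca
Cd247 upstream, chr1:167718627-167718811, plus strand: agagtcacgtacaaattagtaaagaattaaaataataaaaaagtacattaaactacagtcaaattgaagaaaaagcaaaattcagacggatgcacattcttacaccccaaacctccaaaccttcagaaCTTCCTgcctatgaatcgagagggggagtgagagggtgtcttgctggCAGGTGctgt
The Cd3e stretch held 1 TGGGAA, 1 CAGGTG and 3 AGGAAG. The Cd3g stretch, which is the whole upstream side of its peak, held 1 TGGGAA, 2 CAGGTG, 1 AGATAA and 1 GGGCGG. The 185 accessible bases upstream of Cd247 had a GC content of 39.5%, below the 57.0% of the Cd3e stretch and the 51.9% of the Cd3g stretch, and held 1 AGGAAG and 1 CAGGTG but no TGGGAA. All 185 bases lie in an exon of the long non-coding RNA gene Gm16565. This gene is transcribed in the same direction and ends 686 bp downstream of the Cd247 TSS.

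Of the 4 CD3 subunit genes, 3 had an accessible start, and the exception was Cd3d. Cd3e, Cd3g and Cd247 had an annotated TSS no more than 1 kb from a peak, compared with 46.9% of 22380 protein-coding genes (10506 genes). The starts of these 3 genes were inside the peak itself. Over single transcripts, 9 of the 12 annotated for the 4 genes had a peak within 1 kb of their TSS. A share over 4 genes is coarse and was given no test.

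Cd3e (ENSMUSG00000032093.6, minus strand, chr9:44806826-44817673) started within a peak of 941 bp at chr9:44817133-44818073. This peak reached 400 bp upstream and 540 bp downstream of the TSS. Over the 8952 coding genes whose start lies in a peak, the medians were 386 bp upstream and 492 bp downstream, so the Cd3e peak was placed as at a typical start. It was wider than 60.7% of the peaks within 1 kb of a TSS. A second peak of 562 bp followed upstream, at chr9:44818380-44818941, 707 bp from the TSS and separated from the start peak by 306 bp. The accessible region at the Cd3e start was thus split into a pair of peaks.

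Cd3g (ENSMUSG00000002033.7, minus strand, chr9:44777655-44788514) started within a peak of 781 bp at chr9:44787977-44788757, which reached 243 bp upstream and 537 bp downstream. Its upstream side was shorter than usual, since 16.4% of coding genes with a start in a peak reached less far upstream, while 57.5% reached less far downstream. No second peak was found near this start, and the closest other peak lay 5555 bp away, over the end of Cd3d.

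Cd3d (ENSMUSG00000032094.7, plus strand, chr9:44789876-44795135) is transcribed away from Cd3g, and the starts of both genes are 1362 bp apart. The only accessible sequence between them was the upstream side of the Cd3g peak, whose edge lay 1119 bp from the Cd3d TSS. Of 113 head-to-head pairs of coding genes with starts 1 to 2 kb apart, 57 (50.4%) had a peak within 1 kb of both starts, 28 (24.8%) of 1 start and 28 (24.8%) of neither. Cd3g and Cd3d belonged to the group with 1. The 250 bases upstream of the Cd3d TSS are shown for comparison with the accessible starts above, a choice made after the absence of a peak had been seen.
Cd3d upstream, no peak, chr9:44789626-44789875, plus strand: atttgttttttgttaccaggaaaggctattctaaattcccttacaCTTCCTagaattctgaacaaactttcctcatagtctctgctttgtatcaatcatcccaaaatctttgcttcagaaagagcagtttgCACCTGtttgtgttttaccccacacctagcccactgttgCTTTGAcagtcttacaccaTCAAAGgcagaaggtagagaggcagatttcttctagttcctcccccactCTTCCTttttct
This stretch held no CpG dinucleotide and had a GC content of 40.8%. It matched 2 CTTTGA, 2 AGGAAG and 1 CAGGTG, and none of the RBPJ, RUNX, GATA or SP cores. The list does not tell a closed start from 1 whose signal stayed under the calling threshold in more than 3 libraries.

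The accessible site of Cd3d was instead at the other end of the gene. A peak of 929 bp at chr9:44794313-44795241 covered the annotated 3′ end, with 780 bp in exons, 711 bp of them in UTR, and its last 106 bases beyond the gene. It was wider than 93.3% of distal peaks, those more than 1 kb from every TSS. The accessible bases past the gene end, chosen for display after this peak had been seen, matched none of the 10 cores.
Cd3d beyond the 3′ end, chr9:44795136-44795241, plus strand: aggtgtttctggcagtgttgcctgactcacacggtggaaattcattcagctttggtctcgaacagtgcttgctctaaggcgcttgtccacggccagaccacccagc
The 3′ end of Cd3e was flanked in a similar way. A peak of 437 bp at chr9:44806218-44806654 lay 172 bp past the gene end, and a peak of 513 bp at chr9:44807214-44807726, 559 bp away from it, lay inside the gene with 457 bp in exons. The 300 bases of the outer peak nearest to the gene, also chosen after the peak had been seen, are given on the Cd3e strand.
Cd3e beyond the 3′ end, chr9:44806355-44806654, minus strand: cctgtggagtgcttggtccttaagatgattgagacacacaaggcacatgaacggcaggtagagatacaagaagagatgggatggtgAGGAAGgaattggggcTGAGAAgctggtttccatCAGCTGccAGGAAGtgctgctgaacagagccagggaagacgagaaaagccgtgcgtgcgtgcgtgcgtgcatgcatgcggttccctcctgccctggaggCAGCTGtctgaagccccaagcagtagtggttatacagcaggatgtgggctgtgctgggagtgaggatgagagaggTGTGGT
They held 1 TGAGAA, 2 CAGCTG, 1 TGTGGT and 2 AGGAAG. The stretch past Cd3d, with no core, is shorter at 106 bases, so the counts are not directly comparable. The whole peak at the Cd3d end held 1 TGGGAA, 2 TGAGAA, 1 CAGGTG, 2 TGTGGT, 1 AGGAAG and 1 CTTTGA. Because Cd3d and Cd3e point towards each other, their 3′ ends face across 11691 bp of intergenic sequence, and both ends were marked by a peak while the sequence between these peaks held none.

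A peak within 1 kb of the 3′ end was thus present in 2 of 4 CD3 genes. Among coding genes whose 3′ end lies more than 1 kb from every TSS, as it does for all 4 members, 5.52% had such a peak (1046 of 18964). The nearest peaks to the 3′ ends of Cd3g and Cd247 were 2416 bp and 1240 bp away. A peak at the 3′ end without any within 1 kb of a TSS was the arrangement of Cd3d. It was found in 1 of 4 members and in 2.14% of the same coding genes (405 genes). Cd3d was counted here because the peak nearest to its TSS, at 1119 bp, lay just beyond the limit of 1 kb. The share at a limit of 2 kb is not given here. These counts were looked for after the positions had been seen and rest on 2 genes and 1 gene, so they are descriptions and were given no test.

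**Figure D1:**
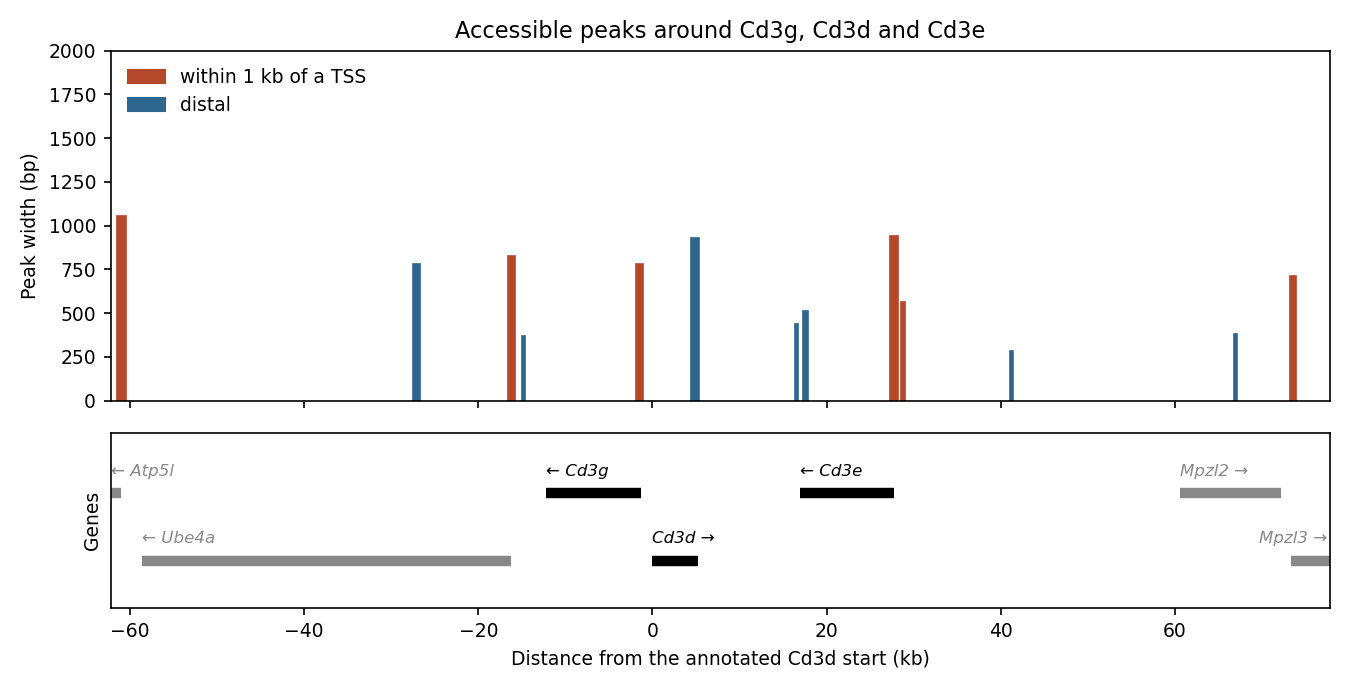
Peaks around Cd3g, Cd3d and Cd3e. The horizontal axis gives the distance from the annotated Cd3d start in kb, each bar is 1 peak drawn at its position with its width in bp as the height, orange bars lie within 1 kb of a TSS, blue bars are distal, and the lower panel shows the coding genes (CD3 genes in black, arrows for the direction of transcription). The Cd3g and Cd3e starts carry orange bars of 781 and 941 bp, the Cd3d start at 0 carries none, and blue bars stand at the facing 3′ ends of Cd3d and Cd3e.

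From the Cd3g start to the Cd3e start, a span of 29159 bp, there were 5 peaks, namely both start peaks and the 3 peaks at the facing gene ends. Outside this span the cluster was bordered on 1 side by Ube4a, a ubiquitin chain elongation factor gene, whose start peak measured 825 bp, and farther out by Atp5l, which encodes a subunit of the mitochondrial ATP synthase, with a start peak of 1053 bp. On the other side Mpzl2 and Mpzl3, genes of myelin protein zero-like adhesion molecules, followed. Mpzl3 had a start peak of 710 bp, whereas Mpzl2 had none, its nearest peak lying 6150 bp inside the gene. In the 32835 bp between the Cd3e and Mpzl2 starts, the upstream Cd3e peak was joined only by a peak of 281 bp at chr9:44830979-44831259, the narrowest of the 26 and wider than only 1.46% of all peaks. The widest intronic or intergenic distal peak of this window, 780 bp, was in an intron of Ube4a and not in a CD3 gene. Its central 300 bases held 1 CAGGTG and 1 AGGAAG.

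Cd247 (ENSMUSG00000005763.8, plus strand, chr1:167718812-167807407) is 88596 bp long, compared with 5260 bp to 10860 bp for the other 3 genes, and its accessible regions were spread along the gene body. Its start peak, chr1:167718627-167720389, was 1763 bp wide, the widest of the 26, wider than 99.3% of all peaks and 98.3% of those near a TSS. The extra width was on the transcribed side. The peak reached 1577 bp downstream of the TSS, farther than 99.5% of coding genes with a start in a peak, but 185 bp upstream, where 8.20% reached less. It covered the starts of 5 of the 7 annotated Cd247 transcripts, which fall within a short stretch.

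Within the gene body 9 peaks were found, more than in the body of 99.1% of coding genes, a count that a long gene reaches more easily. By their centres, 6 of them were distal peaks in Cd247 introns. The widest of these measured 1281 bp, wider than 98.4% of distal peaks, and had a narrow companion of 333 bp at 444 bp distance. The next in width measured 1012 bp at chr1:167758141-167759152 (95.2% of distal peaks were narrower) and 772 bp at chr1:167741032-167741803 (87.0%). The other intronic peaks, of 414 bp and 383 bp, were narrower than the median distal peak of 465 bp. Thus the Cd247 introns contained both very wide and narrow accessible regions.

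The widest intronic Cd247 peak was rich in GC and CpG although the nearest annotated TSS was 12526 bp away. Its GC content was 60.7%, higher than in 97.2% of distal peaks, and the ratio of observed to expected CpG dinucleotides was 0.519, higher than in 94.2% of them. It held 6 GGGCGG cores, a number reached by 95 of all distal peaks (0.452%). The peak was identified by its width and then described, so its composition is not independent support for a class of its own.

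The remaining peaks of the gene body lay near a second Cd247 start and in an overlapping gene. A peak of 402 bp at chr1:167788482-167788883 lay 135 bp from the start of a non-coding Cd247 transcript, and a further non-coding start was 5903 bp from it without a peak of its own. The last peak, 508 bp at chr1:167805660-167806167, fell entirely in an exon of Pou2f1, the gene of the octamer-binding factor OCT1, which is transcribed in the opposite direction and overlaps the end of Cd247. After it no peak was called for 100533 bp, a gap longer than 89.0% of all gaps between neighbouring peaks. Upstream of Cd247, the start of Gm16565 had a peak of 1186 bp, and Creg1, which encodes a secreted glycoprotein, had a start peak of 891 bp with a neighbour of 377 bp and an intronic peak of 439 bp.

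**Figure D2:**
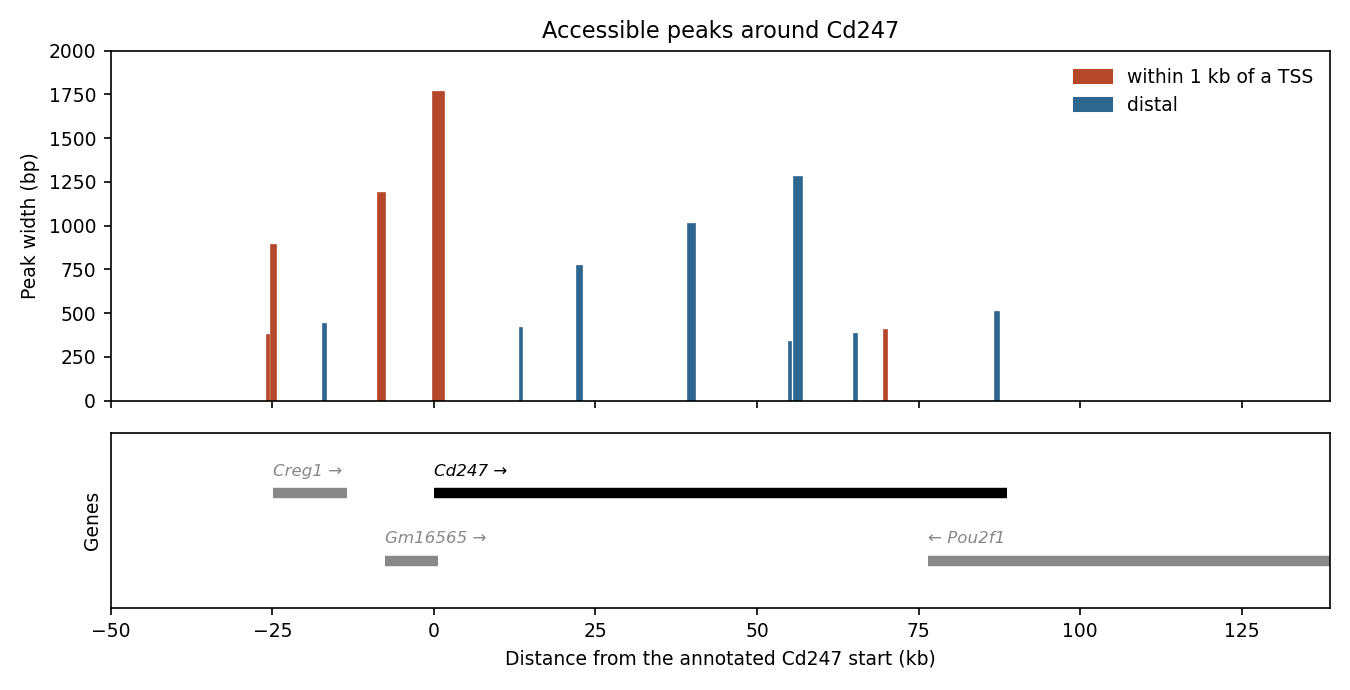
Peaks around Cd247. The horizontal axis gives the distance from the annotated Cd247 start in kb, each bar is 1 peak with its width in bp as the height, orange bars lie within 1 kb of a TSS, blue bars are distal, and the lower panel shows Cd247 in black and its neighbours in grey. The start peak of 1763 bp is the tallest bar, intronic peaks of 772, 1012 and 1281 bp follow within the gene, and no bar stands beyond the end of Cd247.

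In both windows together, 11 of the 26 peaks (42.3%, exact 95% interval 23.4 to 63.1%) lay within 1 kb of a TSS, compared with 35.4% of all peaks. The interval includes the share of all peaks and was not used as a test. It covers counting error only and treats neighbouring peaks as independent. By the centre, 13 peaks were in introns, 8 were intergenic and 5 were in exons. The same split over all peaks is not given here, so these counts do not set the CD3 windows apart. The nearest coding start belonged to a CD3 gene for 17 of the 26 peaks, to Cd247 for 10, Cd3e for 5 and to Cd3d and Cd3g for 1 each. The other 9 were nearest to Creg1, Ube4a, Atp5l, Mpzl2 or Mpzl3, so that an assignment by window includes peaks of the neighbours. Peaks overlapping a CD3 gene body numbered 13, namely 9 in Cd247, 2 in Cd3e and 1 each in Cd3d and Cd3g.

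The windows themselves set which of these peaks were counted. The outermost chromosome 9 peaks lay 743 bp and 3858 bp inside the edges of the window, and the first peaks outside were 36461 bp and 19303 bp away. On chromosome 1 the outermost peaks lay 24188 bp and 51240 bp inside, and the first outside were 2106 bp and 49294 bp away. Accessible sequence made up 6.11% of the chromosome 9 window (8558 of 140019 bp) and 5.18% of the chromosome 1 window (9761 of 188596 bp).

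Width differed little from that of the list as a whole once position was taken into account. The median of the 26 peaks was 636 bp (95% interval from order statistics 414 to 891 bp, range 281 to 1763 bp), and that of all peaks was 551 bp. The 11 peaks near a TSS had a median of 825 bp against 855 bp in all such peaks, and the 15 distal peaks 439 bp against 465 bp. In all, 12 of 26 peaks were wider than the median of their own class. The 5 peaks over 1 kb were the starts of Cd247, Gm16565 and Atp5l and the pair of wide intronic Cd247 peaks. When peaks within 5 kb of each other were joined, the 26 peaks formed 20 runs, of which 6 contained 2 peaks and none contained more. Among these runs were the pairs at the Cd3e start, at the Cd3e end and at the widest intronic Cd247 peak. The share of paired peaks in the whole list is not given here, so pairing cannot be called particular to the CD3 genes.

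**Figure D3:**
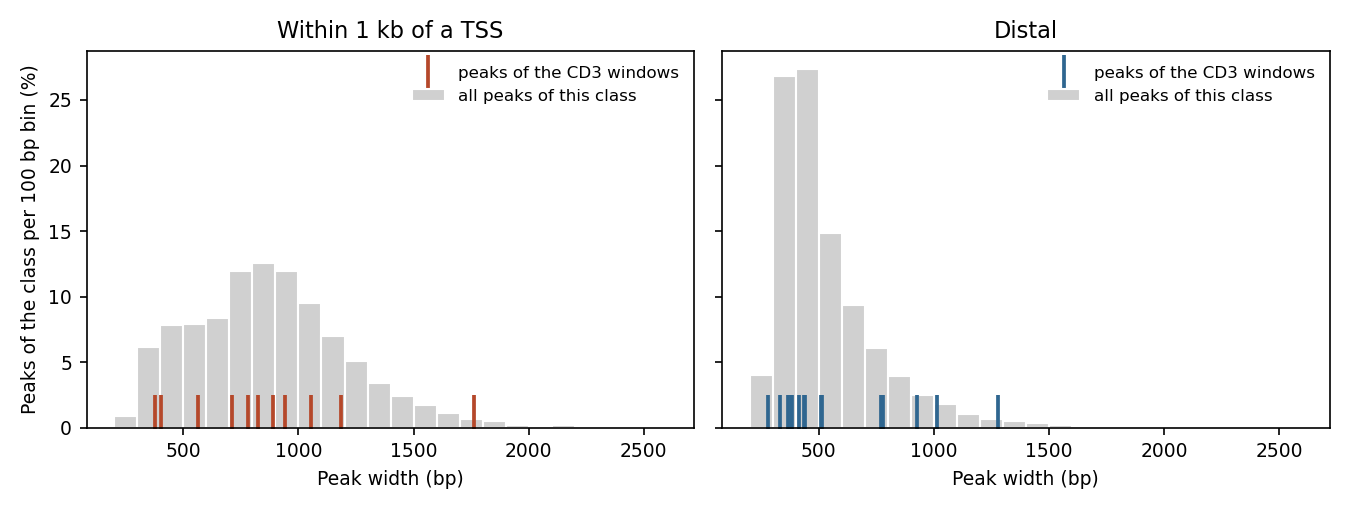
Widths of the 26 peaks within the distribution of all peaks of the same class. The horizontal axes give peak width in bp, grey bars give the percentage of all peaks of the class per 100 bp bin, and each coloured line is 1 peak of the CD3 windows. The 11 lines near a TSS (left) and the 15 distal lines (right) lie across the range of their class, with the Cd247 start at 1763 bp and the Cd247 intronic peak at 1281 bp far to the right.

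The start peaks of the CD3 genes were poor in CpG dinucleotides, unlike those of the coding genes beside them. The observed to expected CpG ratio was 0.173 at Cd3g, 0.298 at Cd3e and 0.337 at Cd247, ratios that only 6.16%, 14.1% and 16.3% of peaks near a TSS fell below. At Mpzl3, Ube4a, Atp5l and Creg1, whose start peaks lie in the same windows, it ranged from 0.608 to 0.788. A peak was called CpG-rich when the ratio reached 0.6 and the GC content 50%. By this rule 0 of 3 CD3 start peaks and 4 of 4 start peaks of neighbouring coding genes were CpG-rich, and among all 7989 peaks covering a coding start 83.4% were. The ranges of the CD3 genes and these coding neighbours did not overlap. The start peak of the non-coding neighbour Gm16565 was between them with a ratio of 0.460 and was not CpG-rich. CpG-poor promoters are known from many genes with expression restricted to certain cell types, and CpG-rich promoters from genes active in most tissues.

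The GC contents of the 3 CD3 start peaks were close together, between 52.0% and 52.5%, below the median of 60.5% of peaks near a TSS and just above the 50.1% of distal peaks. In CpG ratio as well, the value at Cd3g was below the median of distal peaks (0.214), and those at Cd3e and Cd247 were above it. Over the 26 peaks, 4 (15.4%) were CpG-rich, the starts of the coding neighbours, compared with 26.1% of all peaks. Of the 15 distal peaks 0 were CpG-rich, against 2.94% of all distal peaks. The highest ratio among them was that of the wide intronic Cd247 peak described above. The second peak upstream of Cd3e was poorer in GC than nearly all peaks near a TSS, with 44.0%, and only 1.66% of that class were lower.

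**Figure D4:**
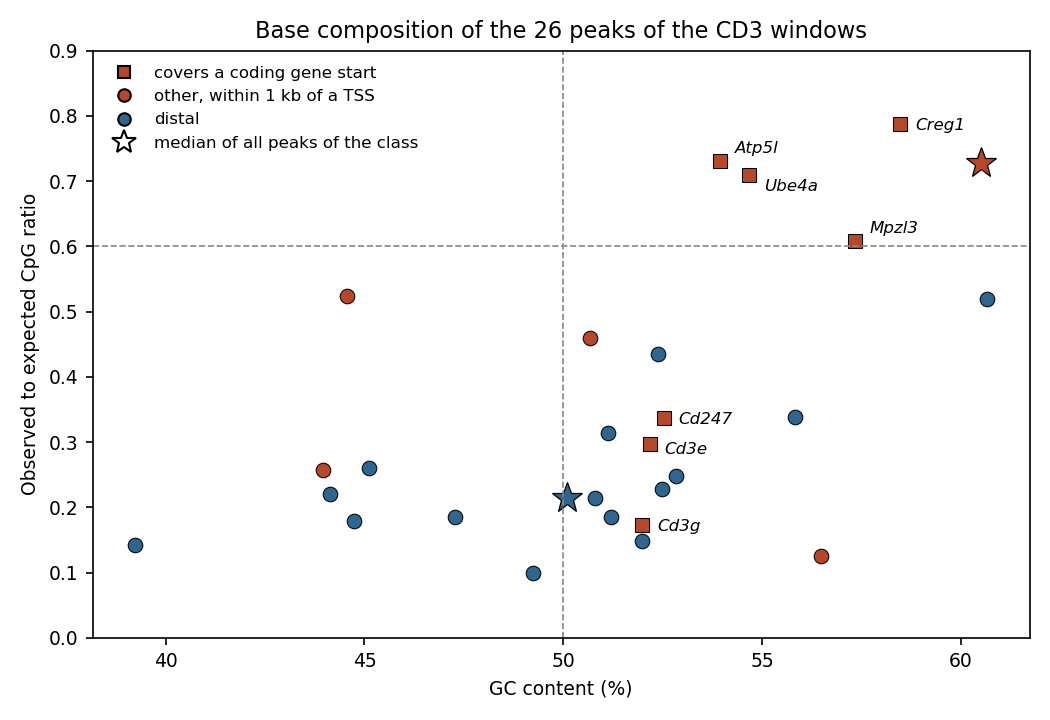
GC content (horizontal axis, in percent) and observed to expected CpG ratio (vertical axis) of the 26 peaks. Squares cover the start of a named coding gene, orange circles are other peaks within 1 kb of a TSS, blue circles are distal peaks, stars are the medians of all peaks of each class and dashed lines mark the limits of the CpG-rich class. Cd3g, Cd3e and Cd247 sit among the distal peaks at ratios of 0.173 to 0.337, and the starts of the 4 neighbouring coding genes sit above 0.6.

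The RBPJ core TGGGAA was searched because the study concerns Notch signalling, which acts through RBPJ. It was present in 12 of the 26 peaks (46.2%), compared with 42.5% of all peaks. TGGGAA or TGAGAA was present in 17 (65.4%), compared with 62.5%. In these shares the CD3 windows were close to the list as a whole. Both cores were present in 7 of 26, compared with 17.3% of all peaks. The 3 CD3 start peaks each held at least 2 TGGGAA, whereas 17.7% of all 7989 peaks over a coding start and 0 of the 4 start peaks of neighbouring coding genes did. This grouping was made after the counts had been seen, and 3 peaks are too few for more than a description.

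At Cd3g the TGGGAA cores began 174 bp upstream and 196 and 333 bp downstream of the TSS, all on the strand of the gene. The upstream core is in the Cd3g sequence printed above. At Cd3e they began 144 bp upstream on the strand of the gene, also in the printed sequence, and 271 bp downstream on the opposite strand. In Cd247 both were downstream, at 193 and 310 bp, on the opposite strand. The upstream cores of Cd3g and Cd3e were thus at comparable distances from the start, and Cd247 had no such core on its short upstream side.

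Other lymphoid motif cores were counted separately in start-proximal and distal peaks and were given no test. The RUNX core TGTGGT was present in 9 of the 15 distal peaks (60.0%) against 45.5% of all distal peaks, and in the central 200 bp in 7 (46.7%) against 25.6%. TGAGAA was also present in 9 distal peaks, against 38.1%. Near a TSS, TGTGGT was present in 4 of 11 peaks (36.4%) against 34.1%, and TGAGAA in 3 (27.3%) against 35.8%. The GATA core AGATAA was present in 1 of 15 distal peaks (6.67%) against 22.3%, and in 5 of 11 peaks near a TSS (45.5%) against 16.5%. These 5 were the Cd3g start peak, the second peak upstream of Cd3e and the start peaks of Creg1, Gm16565 and Ube4a. In the central 200 bp AGATAA was present in 0 of the 11 peaks near a TSS against 3.11%, and in 1 distal peak (6.67%) against 8.93%. The single distal peak with AGATAA was the intronic Cd247 peak of 1012 bp, which also held 3 TGTGGT. RUNX proteins, GATA3 and E proteins are regulators of T-cell development.

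The E-box CAGGTG was present in 17 of 26 peaks (65.4%) against 49.8% of all peaks, and in 11 of the 13 around Cd247 but 6 of the 13 of the chromosome 9 window. In the central 200 bp it was present in 6 of 26 (23.1%) against 23.3%, so the higher share was found only over whole peaks. CAGCTG was present in 12 (46.2%) against 42.7%. ETS cores AGGAAG were found in 18 (69.2%) against 63.8%, with 4 each in the start peaks of Cd3e and Cd247 and 3 in that of Cd3g. The TCF and LEF core CTTTGA was found in 10 (38.5%) against 33.2%, and in all 3 CD3 start peaks 1 time each. By class it was found in 7 of 11 peaks near a TSS (63.6%) against 31.0%, and in 3 of 15 distal peaks (20%) against 34.4%. In the central 200 bp it was found in 1 of 26 (3.85%) against 13.1%. The partial CTCF core AGGGGGC was present in 7 (26.9%) against 21.0%, and in none of the CD3 start peaks. TGTGGT over all 26 peaks was present in 13 (50%) against 41.4%, and AGATAA in 6 (23.1%) against 20.2%. These shares rest on few and partly neighbouring peaks, and longer peaks hold more matches.

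GGGCGG, the core bound by SP factors and common in CpG-rich promoters, differed in frequency rather than in presence. It was found in 11 of 26 peaks (42.3%) against 38.7% of all peaks, and in 8 of 11 peaks near a TSS (72.7%) against 76.6%. Per kb of such peaks, however, there were 1.26 matches in the CD3 windows and 3.56 in all. Each CD3 start peak held exactly 1, and 73.3% of all peaks over a coding start held 2 or more. The count was also low at the CpG-rich starts nearby, of which 1 of 4, Ube4a, held 2 or more.

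The surroundings of the CD3 genes were rich in peaks. Counted separately with 50 kb to either side, Cd247 had 13 peaks, Cd3e 12, Cd3g 11 and Cd3d 10. Between 92.4% and 98.1% of coding genes had fewer, and the median coding gene had 3. The counts of the 3 clustered genes are not independent, since their windows share most peaks. Per 100 kb, which allows for gene length, Cd3e had 10.8, Cd3g 9.92, Cd3d 9.50 and Cd247 6.89 peaks, against a median of 2.37. Cd247, first by count, was thus last by density, still above 89.8% of coding genes.

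The coreceptors and proximal signalling molecules with which the CD3 subunits work had accessible starts throughout, against 46.9% of all coding genes. Each of the 3 coreceptor genes had a start peak, that is 1 within 1 kb of a TSS, and lay in windows of similar density, with 10.5 peaks per 100 kb for Cd4, 9.60 for Cd8b1 and 8.51 for Cd8a. Cd8a and Cd8b1 are neighbours and share peaks. All 11 proximal signalling genes examined had a start peak, namely the kinases Lck, Fyn, Zap70 and Csk, the adaptors Lat and Lcp2, the effectors Plcg1 and Vav1, the phosphatase Ptprc and the negative regulators Cblb and Ubash3a. Their median was 5.21 peaks per 100 kb, from 1.81 at Cblb to 9.46 at Lat. Cd3e exceeded every gene of both lists in density, and Cd247 was within their range. Among the 9 T-lineage markers named below, densities ran from 4.51 to 11.5, and the highest, that of Tcf7, exceeded Cd3e.

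ITAM-bearing or associated subunits of receptors of other cell types gave a mixed picture. A start peak was present in 2 of 5 genes (40%), near the 46.9% of all coding genes. They were Tyrobp (DAP12) and Hcst (DAP10), which adjoin each other, with a peak at 517 bp and over the start. The B-cell receptor subunits Cd79a and Cd79b and the Fc receptor subunit Fcer1g had none, with nearest peaks 6519, 11010 and 11287 bp from a TSS. Their windows still held 6 to 8 peaks, 5.73 to 7.63 per 100 kb. The density of the surroundings was therefore near that of Cd247 also where no peak was called within 1 kb of a TSS.

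The labelled cell type was checked with marker genes in the same way. A peak within 1 kb of a TSS was present in 8 of 9 T-lineage markers. These were Cd3e, Cd3g, Cd247, Lck, Ptcra (the pre-T-cell receptor α chain), Bcl11b, Tcf7 and Gata3, and the exception was Cd3d. It was present in 0 of 5 B-lineage markers (Cd79a, Cd79b, Ms4a1, Pax5 and Ebf1). Of 5 myeloid markers it was present in 1, Spi1, at 415 bp, but not in Csf1r, Itgam, Lyz2 or Cebpa. Over all coding genes the share was 46.9%. Cd79a and Cd79b are also among the 5 genes of the ITAM list above. Because 3 of the 8 accessible T-lineage markers are CD3 genes themselves, the check rests on the other 5.

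**Figure D5:**
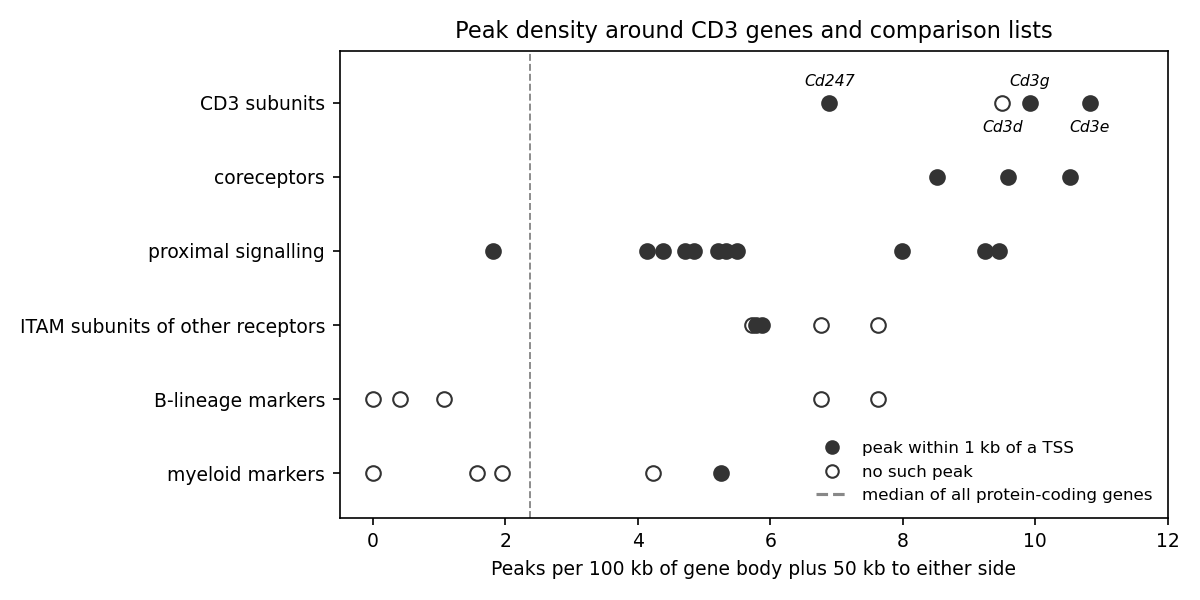
Peak density around the CD3 genes and comparison lists. The horizontal axis gives peaks per 100 kb of gene body plus 50 kb to either side, each point is 1 gene, filled points have a peak within 1 kb of a TSS, open points have none, and the dashed line is the median of all protein-coding genes (2.37). The 4 CD3 genes lie between 6.89 and 10.8 with Cd3d as the open point, the coreceptors overlap them, and all 11 proximal signalling genes are filled.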

How the data were processed

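ATAC-Seq libraries were made with a commercial kit from 6 samples of Beko cells, 3 treated with GSI and 3 with DMSO, grouped by their labels. The authors trimmed reads with trimGalore, mapped them to mm9 using HISAT2 2.2.1 (1 alignment kept per read) and discarded duplicates using Picard. They ran MACS2 without input, removed blacklisted regions and kept peaks found in 3 of 6 replicates. The methods name MSPC for ChIP-Seq replicates and give the primary analysis of ATAC-Seq as identical to that of ChIP-Seq. A shift of read ends for the transposase is not given in the sources used here. Per the labels, deepTools was also used. The deposited list gives each peak's chromosome and its limits in bp, and the deposited score is 0 for all 32527 peaks, so it carries no measurement. Requiring 3 of 6 libraries can keep peaks of 1 treatment without recording which, and keeping 1 alignment per read can assign repeated sequence to 1 of several places.

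Genes came from GENCODE vM1 and bases from NCBIM37, the same assembly as mm9. RefSeq gene tables of another build were used for names only (Spi1 is annotated under its older symbol Sfpi1). Ptcra, annotated there as an immunoglobulin-type gene, is outside the 22380 coding genes. Coordinates are counted from 1. Positions, widths, base composition and motif matches were computed in Python 3.11.15 (numpy 2.4.6, scipy 1.17.1, matplotlib 3.10.9), with functions tested on simulated data. Intervals are 95% exact binomial or order-statistic intervals and cover counting error only. No test was run. A GSI against DMSO count test had been planned but needs values per library. Named were the 4 members, coding genes overlapping the windows or nearest to a peak, and the comparison lists. Alternatives changed the flank, distance to the TSS, minimum width, joining of peaks and motif window. Printed sequences were those upstream of the starts, plus 3 stretches chosen after the peaks were seen. The centre of the widest intronic or intergenic distal peak on chromosome 9 was read but not printed because it lies in Ube4a. Some items, including members of the comparison lists, are not reported here and were left out of the list counts. Likeness of pattern to other genes was not computed. The members, lists and measures were chosen with earlier results of these data known.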

Additional observations from a re-analysis of the deposited data

How the results depend on the processing

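The number of peaks followed the window. Of the 26 peaks, 13 were left with gene bodies only and 16 with a minimum width of 500 bp, while 18 were found with a flank of 10 kb, 36 with 100 kb and 21 after joining peaks within 1 kb. The share with TGGGAA fell to 19.2% in the central 200 bp (15.3% of all peaks). Otherwise it ranged from 44.4% with a flank of 10 kb (42.5%) to 56.3% with the minimum width (51.3%). TGGGAA or TGAGAA was held by 65.4% (62.5% of all peaks). The share near a TSS ranged from 30.8% with the TSS inside the peak (30.3% of all peaks) to 56.3% with the minimum width (52.8%), and the median width from 562 to 858 bp. Cd3e, Cd3g and Cd247, but not Cd3d, had a start peak in each of the 3 alternatives tried for that result. None of these alternatives changed the limit of 1 kb. The peak nearest to the Cd3d TSS lay 1119 bp away, just beyond that limit. With the 2 kb used for the share near a TSS, Cd3d would also have had a start peak. Restricting the analysis to the 17 peaks nearest to a CD3 start was chosen after seeing the data. It gave 35.3% near a TSS (35.4% of all peaks) and 52.9% with TGGGAA (42.5% of all peaks). No paired analysis was possible because merged peaks carry no values per library. Leaving out replicates and the planned edgeR fit were not run for the same reason.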
